A study of Saccharomyces cerevisiae with 56 samples.

Results

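Segments of Ty retrotransposons other than the Ty1 copy at YPL257W-B were collected from the insertions found at an HO-induced DNA double-strand break (DSB) in yeast mutants. They numbered 169 of the 1436 single-donor insertions listed for 16 genotypes (11.8%), and 12 genotypes had at least 1. A segment was taken when its listed position lay within 400 bp of a Ty element of the R64 gene table. An element there was a *gag*-*pol* reading frame of 4500 to 5600 bp that shared its start with a *gag* frame of 800 to 1500 bp, or a lone *gag* frame of 1317 or 1323 bp. This gave 44 elements, of which 32 were of the Ty1 kind, 10 of the Ty2 kind, 1 of the Ty3 kind and 1 of the Ty4 kind, as read from the length of *gag*. The 111 insertions from chromosome XVI, 56348 to 62416, where the YPL257W-B element lies, were left out and serve as a comparison. The remaining lines held 1082 insertions from outside Ty elements and 74 from the mating-type cassettes.

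The study asked which proteins limit the capture of DNA at a break. Cells carried a galactose-inducible HO endonuclease that cuts *MAT***a**, the surviving colonies of a library were pooled, and the repaired locus was amplified and sequenced (*Break-Ins*). All strains were haploid and isogenic to JKM139, with *hml*::*ADE1* and *hmr*::*ADE1* in place of the silent cassettes, DELho, *ade1*, *lys5*, *leu2*, *trp1*::*hisG* and *ura3* markers, and *HO* driven by *GAL10* at *ade3*. The tested strains were *rtt105*::hphMX (8 libraries), *rad27*::klTRP1 (14), *sgs1*::KanMX (2), *exo1*::TRP1 (2), *sgs1*::KanMX *exo1*::TRP1 (4), *rfa1*-t33 (3), *rfa1*-t33 *rad27*::klTRP1 (2), *rtt105*::hphMX *rad27*::klTRP1 (3), *rtt105*::hphMX *tel1*::TRP1 (2), *rtt105*::hphMX *rad1*::klTRP1 (2), *pol32*::natMX (2), *rev3*::klTRP1 (2), *rad30*::kanMX (2), *lig4*::klTRP1 (2) and *mre11*::hphMX (2). The strain set against them was *mre11*-H125N::URA3 (2 libraries), which carries a nuclease-dead Mre11, and no unmutated strain was analysed here. Cells were kept at 30 °C, except for 3 *rad27*Δ libraries at 23 °C and 3 at 37 °C. The label of each genotype names a single strain, so each genotype is 1 strain grown several times.

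Rtt105 is a chaperone of the single-stranded DNA-binding protein RPA, whose large subunit is altered in *rfa1*-t33. Rad27 is the flap endonuclease of Okazaki fragment maturation, Sgs1 is a RecQ helicase and Exo1 is an exonuclease of DNA end resection. Ty1 and Ty2 are long terminal repeat (LTR) retrotransposons of budding yeast. Each consists of an LTR at either end with *gag* and *pol* in between, and in Ty1 the *gag* frame opens inside the 5′ LTR. Ty RNA is copied into cDNA by the element's own reverse transcriptase. This minus-strand cDNA is primed by a tRNA that pairs just inside the 5′ LTR, at the primer binding site, and a short first product runs from there to the 5′ end of the RNA. The cDNA is then carried on from the 3′ LTR through *pol* and *gag*.

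The lists pool all libraries of a genotype and give no read number, so depth per library is unknown and no spread between libraries could be had. Frequencies were therefore set against the colonies that the labels give, 2105688 in 54 libraries, with 14976 to 820032 colonies per genotype. The paper instead uses colonies normalized for HO cutting, which was not done here. Its normalization removes few colonies in *mre11*-H125N and a larger part in *rtt105*Δ, *sgs1*Δ, *sgs1*Δ *exo1*Δ and *rad27*Δ. In *lig4*Δ and *mre11*Δ it removes most. Frequencies per colony are thus not those per repaired break. Every test below takes an insertion or a colony as its unit and covers counting error only. R64 is the genome of another strain, S288C, and whether JKM139 carries the same Ty copies is not given in the sources used here. Copies of Ty1 are nearly identical over long stretches, as are the LTRs at the ends of a copy. The element named for a segment is thus the copy to which it was listed, and the true donor copy cannot be told apart from others. No LTR annotation was used, so a segment was placed on the 5′ side when it held bases before *gag*, on the 3′ side when it held bases after *pol*, and otherwise inside the frames.

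Most segments of this set were listed at the ends of the element and not in its long middle. At YPL257W-B, which is left out here, 81 of 111 were internal. Since donor copies cannot be told apart, this majority describes the listed positions of this set only. Of the 169 segments, 88 lay on the 5′ side, 66 inside the frames and 15 on the 3′ side. Their length ran from 47 to 481 bp, with a median of 179 bp and quartiles of 105 and 304 bp. By strand, 77 were listed on the strand of the element and 92 on the opposite one. Whether the listed strand is that of the captured DNA or cDNA was not tested. The 2 orientations were thus close to even overall (45.6% on the element's strand, 95% exact binomial interval 37.9 to 53.4%). The 5′ side and the interior of the element had opposite leanings, however. Among the 166 Ty1 and Ty2 segments, 64 of 87 on the 5′ side were opposite to the element, against 15 of 64 inside the frames. On the 3′ side 13 of 15 were opposite. The same order held in *rtt105*Δ alone, with 30 of 43 segments opposite on the 5′ side, 9 of 44 inside and 7 of 8 on the 3′ side. In the other genotypes together the counts were 34 of 44, 6 of 20 and 6 of 7. These classes were set against each other after their values had been seen, so no test is given.

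**Figure D1:**
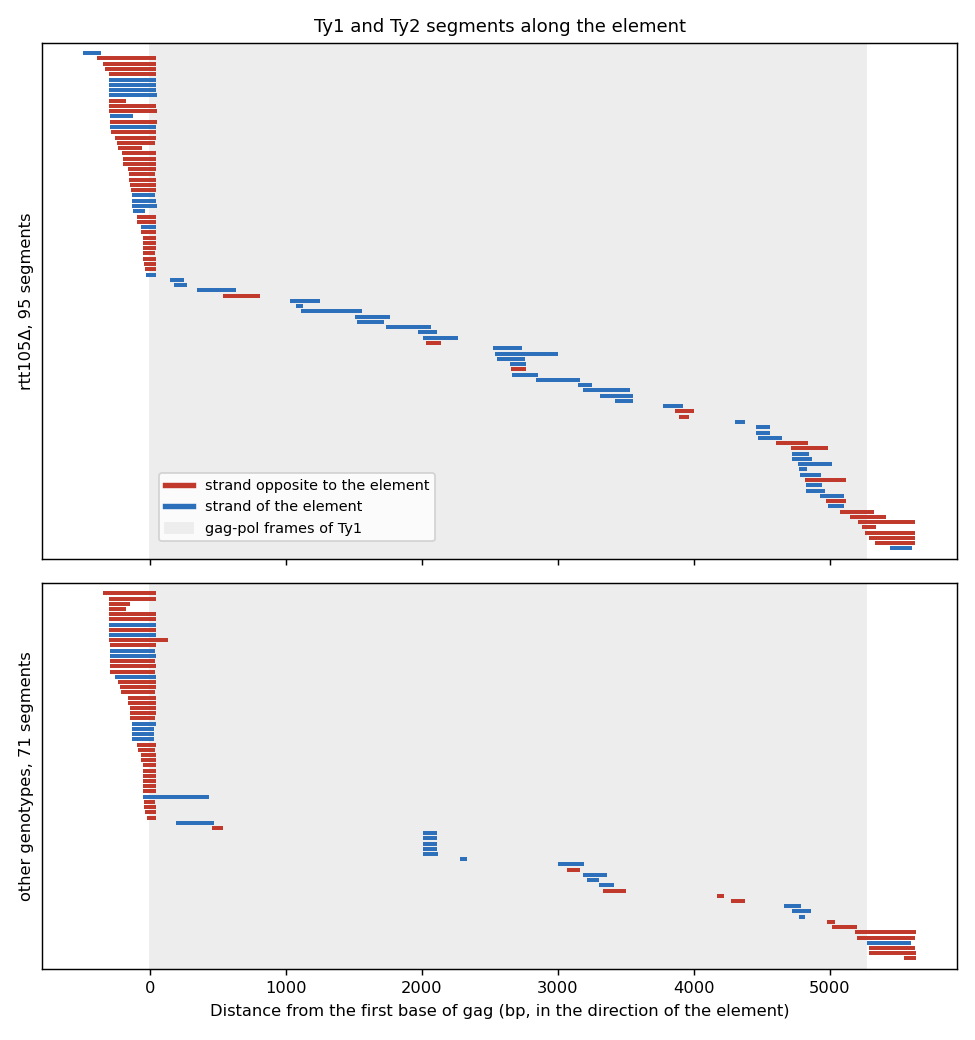
Position of the 166 Ty1 and Ty2 segments along their elements, in bp from the first base of *gag* in the direction of the element. Each line is a segment, red where its listed strand is opposite to the element and blue where it is the element's own, with 95 segments of *rtt105*Δ above and 71 of the other genotypes below. The grey field is the frame of a full Ty1 element. Red lines are frequent at either end (64 of 87 on the 5′ side, 13 of 15 on the 3′ side) and blue lines in the middle (15 of 64 were red).

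The inner end of the 5′-side segments fell at nearly the same place. Positions are given from the first base of *gag* as 0, with negative numbers upstream. Of the 87 Ty1 and Ty2 segments on the 5′ side, 75 ended between positions 40 and 55, in 10 genotypes. Position 48 alone held the end of 30 segments and position 47 that of 14. By the known layout of Ty1, the 5′ LTR ends just inside *gag*, about here, and the primer binding site follows. Of those 75 segments, 59 were on the opposite strand. The windows were drawn after the positions had been seen and serve as a description. Of the remaining 12 segments, 7 lay wholly upstream of *gag*, 3 ended at position 33, and 2 reached farther into *gag*, to positions 135 and 433. The 3 that ended at position 33 were all listed at YLR227W-B and on the element's strand.

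The outer ends of these segments were more spread, with 2 peaks. From position -310 to -290, near the outer border of the 5′ LTR, 26 of the 87 segments began. Of these, 21 also ended in the window at the inner end and so spanned the whole 5′ LTR, with lengths of 335 to 353 bp (median 347 bp). The spanning segments were found in 8 genotypes, namely 9 in *rtt105*Δ, 4 in *sgs1*Δ, 2 in *sgs1*Δ *exo1*Δ, 2 in *rad27*Δ and 1 each in *rfa1*-t33, *exo1*Δ, *rtt105*Δ *tel1*Δ and *mre11*-H125N. Their strand was mixed, with 12 of 21 opposite to the element.

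The other peak gave a short segment. A start 50 to 40 bp upstream of *gag* together with an end in the inner window was seen in 14 segments of 88 to 99 bp (median 98 bp). All 14 were opposite to the element. They came from 6 genotypes, with 6 in *rtt105*Δ, 3 in *sgs1*Δ *exo1*Δ, 2 in *sgs1*Δ and 1 each in *rfa1*-t33, *rfa1*-t33 *rad27*Δ and *mre11*-H125N. The only segment of *rfa1*-t33 *rad27*Δ was of this form and was 99 bp long. The most recurrent segment of the set belonged here too. When segments were grouped on the scale of the element, with both ends within 5 bp and the same orientation, 11 of them ran from between -50 and -45 to position 48. They came from 6 genotypes and 5 sequencing runs, and were listed at YML039W and YOL103W-B. At YML039W, 5 segments had exactly the same ends, chromosome XIII from 196578 to 196676 on the minus strand, with 3 in *rtt105*Δ and 1 each in *rfa1*-t33 *rad27*Δ and *sgs1*Δ *exo1*Δ.

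**Figure D2:**
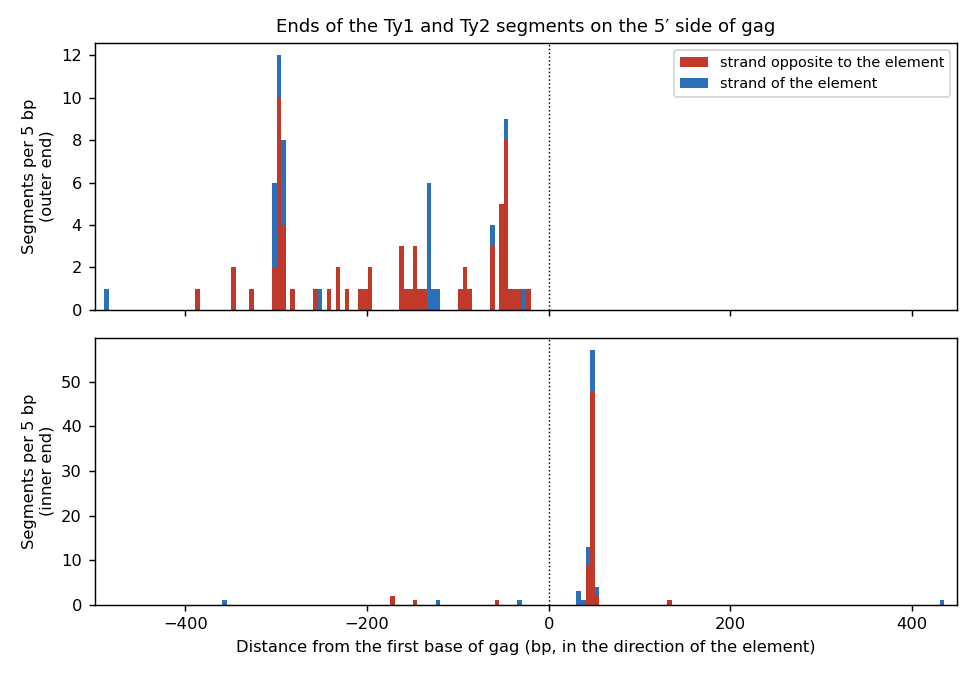
Ends of the 87 Ty1 and Ty2 segments on the 5′ side of *gag*, counted per 5 bp, with the outer ends above and the inner ends below. The horizontal axis gives the distance from the first base of *gag* in bp (dotted line), and the colours give the listed strand. The inner ends pile up just inside *gag*, where 75 of 87 fall between positions 40 and 55, while the outer ends show a peak at the outer border of the LTR (26 segments) and another close to *gag*.

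Whole-LTR segments were the next most recurrent. A group of 7 ran from between -302 and -297 to between 47 and 52 on the opposite strand, in *rtt105*Δ (3), *exo1*Δ, *mre11*-H125N, *rad27*Δ and *sgs1*Δ. A group of 6 on the element's strand ran from between -300 and -296 to between 49 and 52, in *rtt105*Δ (4) and *sgs1*Δ. Over all positions, 24 groups of 2 or more held 75 of the 166 segments (45.2%), and 20 of these groups joined at least 2 genotypes. Some of these likenesses were exact. On the genome, 11 positions were listed more than once with both ends and the strand alike (28 segments), and 10 of them occurred in several genotypes.

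For 2 of those 10 positions, the genotypes had also been sequenced in the same run, as read from the read names. One was the most recurrent internal segment, 105 bp of *pol* at YPR137C-B, chromosome XVI from 808153 to 808257 on the minus strand. It was listed in *sgs1*Δ (2), *rad27*Δ (1) and *rev3*Δ (1), and *rev3*Δ had a further one at the matching place of YNL054W-B, chromosome XIV from 521469 to 521573. All 5 came from a single run. The other was a segment of YLR227W-B, chromosome XII from 593308 to 593471 on the plus strand, in *rad27*Δ and *sgs1*Δ. Whether reads were exchanged between libraries of a run was not tested. Frequencies below are also given without the 6 segments at these 2 positions where that bears on a result.

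Inside the frames, segments were scattered along *gag* and *pol* and mostly ran with the element. The 64 Ty1 and Ty2 segments there lay between positions 150 and 5123 and were 47 to 466 bp long, with a median of 138.5 bp. Counted by their midpoint per 1000 bp from the first base of *gag*, there were 6, 6, 15, 14, 19 and 4 segments. *gag*, which encodes the capsid protein, covers the first of these and part of the second, and *pol*, which encodes protease, integrase and reverse transcriptase, the others. Thus 12 of 64 had their midpoint in the first 2000 bp. YPR137C-B took 22 of the 64, YOR192C-B 12 and YPR158C-D 10. In *rtt105*Δ, 35 of 44 internal segments were on the element's strand, and in *sgs1*Δ all 5 were.

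On the 3′ side the outer end was also shared. Of 15 segments, 9 ended 350 to 370 bp after the end of *pol*, near the outer border of the 3′ LTR. Lengths ran from 91 to 444 bp with a median of 319 bp. They came from 7 genotypes, with 8 in *rtt105*Δ, 2 in *sgs1*Δ and 1 each in *rfa1*-t33, *exo1*Δ, *rad27*Δ, *rtt105*Δ *tel1*Δ and *sgs1*Δ *exo1*Δ. Only the segment of *sgs1*Δ at YMR045C and 1 of *rtt105*Δ at YPR137C-B were on the element's strand. An identical segment of 336 bp after YER138C, chromosome V from 443398 to 443733, was listed in *rad27*Δ and *rtt105*Δ. Since the LTRs of a copy are alike, a segment that lies wholly within an LTR can be listed at either end. In all, 8 segments on the 5′ side and 8 on the 3′ side lay wholly outside the frames.

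Segments were unevenly spread over the elements. Of the 43 elements other than YPL257W-B, 23 were hit, and the 10 with at least 5 segments held 136 of the 169 (80.5%). YPR137C-B, a Ty1 element on chromosome XVI from 805001 to 810269, was listed most often, with 38 segments (22.5%) from 7 genotypes. These were 24 in *rtt105*Δ, 4 in *sgs1*Δ *exo1*Δ, 3 in *sgs1*Δ, 3 in *rad27*Δ, 2 in *rfa1*-t33 and 1 each in *rev3*Δ and *pol32*Δ. Of these, 13 lay on the 5′ side, 22 inside the frames and 3 on the 3′ side. YML039W, a Ty1 element on chromosome XIII from 196628 to 201896, was the second with 21 segments from 6 genotypes. It differed in that all 21 lay on its 5′ side, and 19 were on the opposite strand.

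The other frequent elements fell into the same kinds. YOL103W-B (chromosome XV, 118000 to 123268) had 13 segments, of which 8 lay on the 5′ side. YDR261C-D on chromosome IV had 9 segments with 8 on the 5′ side, and YLR227W-B on chromosome XII had 9, all of them there. YAR010C, taken here as a lone *gag* frame, on chromosome I from 164544 to 165866, had 8 segments of 345 to 353 bp. All lay on the 5′ side, with 4 of them on each strand. In *rtt105*Δ, 3 of these were identical, from 165817 to 166166 on the minus strand. YJR027W on chromosome X had 8 segments, 6 of them on the 5′ side. By contrast YPR158C-D (chromosome XVI, 850989 to 856257) had 12 segments with 10 inside its frames, and all 5 of YNL054W-B were internal. YGR027W-B, YJR029W, YMR045C, YDR365W-B and YOR343W-B had 4 segments each, YER138C had 3, YPR158W-B had 2 and 5 further elements had 1. YJR027W and YJR029W lie next to each other on chromosome X, and 4 segments were near both.

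**Figure D3:**
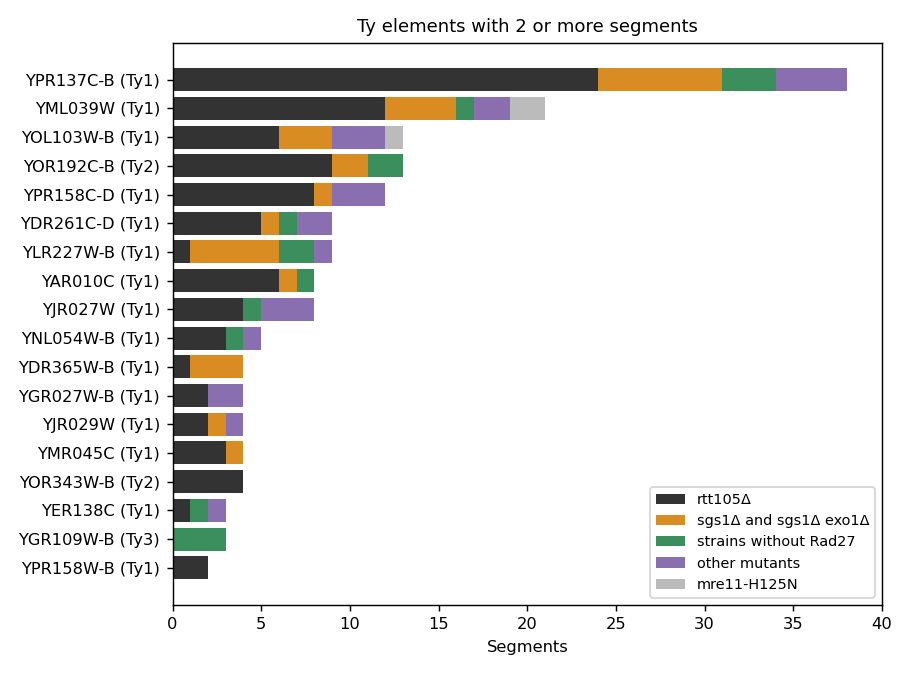
Number of segments listed at each of the 18 elements with at least 2, with bar colours for the genotypes. YPR137C-B held 38 segments and YML039W 21, and *rtt105*Δ supplied 24 and 12 of these.

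Ty2 elements were named for 19 segments, against 147 for Ty1. The 19 were listed at 4 of the 10 Ty2 elements, while Ty1 segments were listed at 18 of the 31 Ty1 elements other than YPL257W-B. YOR192C-B (chromosome XV, 704419 to 709732) held 13 of the 19, with 9 in *rtt105*Δ, 2 in *rtt105*Δ *rad27*Δ and 2 in *sgs1*Δ. Of these 13, 12 were inside the frames and 10 ran on the element's strand. Ty2 segments were of 47 to 332 bp with a median of 117 bp, and Ty1 segments of 47 to 481 bp with a median of 185 bp. Only 4 of the 19 segments listed at Ty2 elements reached outside the frames, against 98 of the 147 listed at Ty1 elements. Whether LTR segments of one kind were listed at elements of the other was not tested, so this contrast describes listed positions. The 332-bp segment of YOR192C-B spanned from -284 to 47 on the opposite strand, and so ended where the Ty1 segments did. The other 2 Ty2 segments on the 5′ side, both at YOR343W-B in *rtt105*Δ, ended upstream of *gag*.

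The single Ty3 element, YGR109W-B on chromosome VII from 707610 to 712254, gave 3 segments of 68, 73 and 84 bp. All 3 came from strains without Rad27, namely 2 in *rad27*Δ and 1 in *rtt105*Δ *rad27*Δ, and all 3 ran on the element's strand. Of all 1436 single-donor insertions, *rad27*Δ held 315, *rtt105*Δ *rad27*Δ 295 and *rfa1*-t33 *rad27*Δ 63. With so few Ty3 segments, no link to the loss of Rad27 can be read from them. The 68-bp segment lay wholly upstream, from -416 to -349, the 84-bp one inside *gag*, and the 73-bp one in *pol* from 3395 to 3467. No segment was listed at the Ty4 element.

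The segments were most frequent in *rtt105*Δ, *sgs1*Δ *exo1*Δ and *sgs1*Δ. The *rtt105*Δ list held 95 segments in 374304 colonies, or 2.54 per 10000 (95% exact binomial interval 2.05 to 3.10). In *sgs1*Δ *exo1*Δ there were 13 in 55000 colonies, or 2.36 per 10000 (1.26 to 4.04). In *sgs1*Δ there were 17 in 106080 colonies, or 1.60 per 10000 (0.934 to 2.57). The *mre11*-H125N list held 4 in 144320 colonies, or 0.277 per 10000 (0.0755 to 0.710). The intervals of these 3 mutants thus lay above that of *mre11*-H125N. The frequency was 9.16-fold higher in *rtt105*Δ than in *mre11*-H125N (two-sided Fisher's exact test, adjusted p = 2.15e-08 over 15 genotypes). It was 8.53-fold higher in *sgs1*Δ *exo1*Δ (adjusted p = 0.000295, exact test) and 5.78-fold higher in *sgs1*Δ (adjusted p = 0.00256, exact test). Without the positions shared within a run, the *sgs1*Δ value was 4.76-fold (adjusted p = 0.0159, exact test).

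The *rfa1*-t33 strain had 7 segments in 53184 colonies, or 1.32 per 10000 (0.529 to 2.71). This was 4.75-fold that of *mre11*-H125N (adjusted p = 0.0438, Fisher's exact test). The call was lost when the YPR137C-B segments were left out (3.39-fold, adjusted p = 0.208, exact test). No other genotype passed. The *exo1*Δ list held 5 segments in 54240 colonies (0.922 per 10000, 3.33-fold, adjusted p = 0.208, exact test), and *rtt105*Δ *tel1*Δ held 6 in 79360 (0.756 per 10000, 2.73-fold, adjusted p = 0.455, exact test). There were 3 in *rev3*Δ, 2 in *pol32*Δ, 4 in *rtt105*Δ *rad27*Δ and 1 in *rfa1*-t33 *rad27*Δ. For *rfa1*-t33 *rad27*Δ the deposited library list names another list than the one that bears its name, which was used here. In *rad27*Δ there were 12 in 820032 colonies, or 0.146 per 10000 (0.0756 to 0.256), which was 0.528 times that of *mre11*-H125N (adjusted p = 0.595, exact test). Whether the *rad27*Δ list holds insertions of its libraries at 23 and 37 °C is not stated. The colony number that the paper gives for this strain leaves out the libraries at the highest temperature. If the list leaves them out too, the *rad27*Δ frequency above, which counts all libraries, is too low. With the 477456 colonies at 30 °C alone the ratio was 0.907 (adjusted p = 0.829, exact test). Leaving out only the libraries at 37 °C was not tested. For the same 12 segments that ratio would lie between 0.528 and 0.907. None was listed in *lig4*Δ, *mre11*Δ, *rad30*Δ or *rtt105*Δ *rad1*Δ. With 3 counts as the limit of a count of 0, up to 0.460, 0.575, 0.804 and 1.02 segments per 10000 colonies remain possible in these 4 strains, in the same order. Their two-sided exact intervals, as plotted, reach 0.565, 0.707, 0.989 and 1.26. Both kinds of limit are per colony. By the paper's normalization for HO cutting, only a small part of the *lig4*Δ and *mre11*Δ colonies held a repaired break. Their counts of 0 thus say little about the frequency per repaired break.

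**Figure D4:**
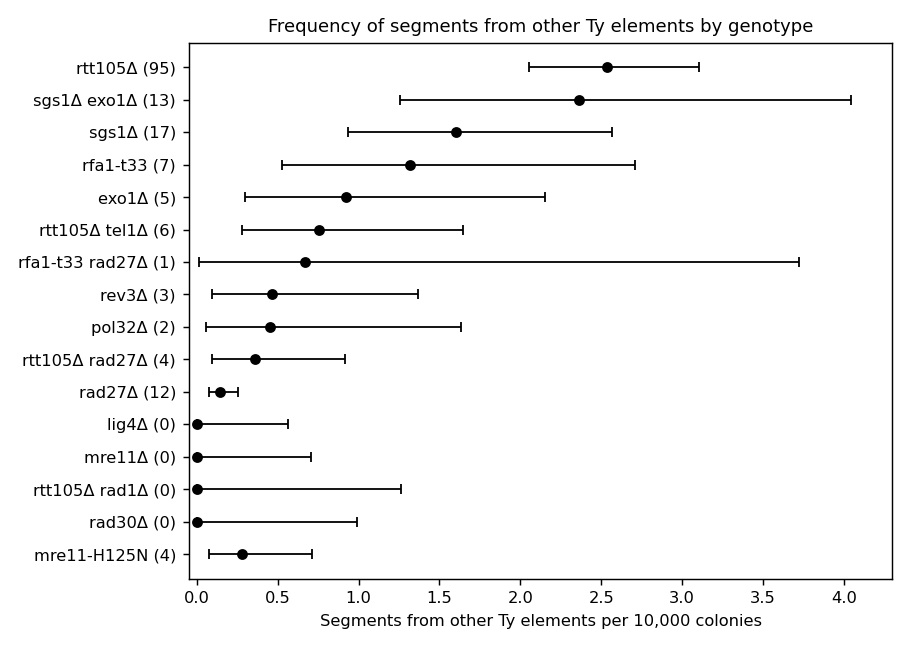
Segments from other Ty elements per 10,000 colonies in each genotype, with 95% exact binomial intervals and the number of segments in parentheses. Colonies were not corrected for HO cutting, which matters most for *lig4*Δ and *mre11*Δ. Values of *rtt105*Δ, *sgs1*Δ *exo1*Δ and *sgs1*Δ lie between 1.60 and 2.54, and *mre11*-H125N, in the bottom row, has 0.277.

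These frequencies say how often a colony carried such a segment, and the share among insertions gave another order. Of the insertions outside the mating-type cassettes, the segments were 95 of 520 in *rtt105*Δ (18.3%), 13 of 72 in *sgs1*Δ *exo1*Δ (18.1%), 17 of 41 in *sgs1*Δ (41.5%), 7 of 37 in *rfa1*-t33 (18.9%) and 12 of 303 in *rad27*Δ (3.96%). They were 4 of 5 in *mre11*-H125N (80.0%). The share was thus lower in *rtt105*Δ than in *mre11*-H125N (0.228 times, adjusted p = 0.0154, Fisher's exact test), the reverse of the frequency, and the value of *mre11*-H125N rests on 5 insertions. The same reversal passed in *sgs1*Δ *exo1*Δ (0.226 times, adjusted p = 0.0181, exact test) and *rfa1*-t33 (0.236 times, adjusted p = 0.0251, exact test), but not in *sgs1*Δ (0.518 times, adjusted p = 0.217, exact test). Sequencing runs were also unequal between genotypes. *sgs1*Δ, *rev3*Δ and *mre11*-H125N were in 1 run, together with 44 of the 315 *rad27*Δ insertions. No *rtt105*Δ, *sgs1*Δ *exo1*Δ or *rfa1*-t33 insertion was in that run, so run and genotype cannot be told apart for them. Within *rtt105*Δ, 90 of 486 insertions were such segments in 1 run (18.5%) and 5 of 34 in the other (14.7%). In that smaller run *rad27*Δ had 1 of 16.

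Among the double mutants, *rtt105*Δ *rad27*Δ carried fewer of these segments than *rtt105*Δ. *rtt105*Δ *rad27*Δ had 4 segments in 111840 colonies, or 0.358 per 10000, which was 0.141 times the frequency of *rtt105*Δ (adjusted p = 2.24e-06 over 10 pairs, Fisher's exact test). It did not pass against *rad27*Δ (2.44-fold, adjusted p = 0.166, exact test). The frequency in *rad27*Δ was 0.0577 times that in *rtt105*Δ (adjusted p = 3.86e-34, exact test). With *rad27*Δ colonies at 30 °C alone, it was 0.099 times (adjusted p = 4.38e-21, exact test), and *rtt105*Δ *rad27*Δ was at 1.42-fold *rad27*Δ. On that basis *rfa1*-t33 *rad27*Δ was at 2.66-fold *rad27*Δ. Which *rad27*Δ colonies belong to the list is in doubt, as said above, so the sizes of these ratios are too. *rtt105*Δ *tel1*Δ had 0.298 times the frequency of *rtt105*Δ (adjusted p = 0.0031, exact test), and *rtt105*Δ *rad1*Δ, a strain without the Rad1 subunit of the Rad1-Rad10 flap endonuclease, had 0 in 29280 colonies (adjusted p = 0.0031, exact test). The lists of these 2 strains are attached to the first of their 2 libraries only. For both strains, however, the paper counts the colonies of both libraries. Its 18 insertions outside *MAT***a** in *rtt105*Δ *tel1*Δ equal the number in the list used here. With the colonies of the first library alone, both calls were lost (adjusted p = 0.166 for either, exact test). As a share of insertions, the segments were 6 of 18 in *rtt105*Δ *tel1*Δ (33.3%) and 95 of 520 in *rtt105*Δ, a ratio of 1.82 in the other direction (adjusted p = 0.176, exact test). No other pair passed. The ratios were 1.47 for *sgs1*Δ *exo1*Δ to *sgs1*Δ, 2.56 for *sgs1*Δ *exo1*Δ to *exo1*Δ, 0.507 for *rfa1*-t33 *rad27*Δ to *rfa1*-t33, 4.56 for *rfa1*-t33 *rad27*Δ to *rad27*Δ and 0.519 for *rfa1*-t33 to *rtt105*Δ. As shares of insertions, *sgs1*Δ *exo1*Δ was lower than *sgs1*Δ (0.435 times, adjusted p = 0.0213, exact test) and than *exo1*Δ (0.325 times, adjusted p = 0.0453, exact test).

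The make-up of the segments was then compared between genotypes, and none of 8 shares passed after adjustment. Ty2 made up 14 of 95 Ty1 and Ty2 segments in *rtt105*Δ (14.7%) and 5 of 71 in the other genotypes (7.04%, adjusted p = 0.387, Fisher's exact test). Segments that reached outside the frames were 51 of 95 in *rtt105*Δ (53.7%) and 52 of 74 in the others (70.3%). Unadjusted, this difference had p = 0.0385, and adjusted p = 0.308 (Fisher's exact test). With segments of both ends within 5 bp counted once, it was -22.02 percentage points and passed (adjusted p = 0.0466, exact test). The element's strand held 49 of 95 segments in *rtt105*Δ (51.6%) and 28 of 74 in the others (37.8%, adjusted p = 0.351, exact test). In *rfa1*-t33, *exo1*Δ, *pol32*Δ, *rfa1*-t33 *rad27*Δ and *mre11*-H125N every segment, 19 in all, was opposite to the element, and 14 of these were on the 5′ side. These genotypes were grouped because all their segments were opposite, and none had more than 7 segments. In *sgs1*Δ 11 of 17 ran with the element, and in *sgs1*Δ *exo1*Δ 3 of 13.

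The strains without Rad27, namely *rad27*Δ, *rfa1*-t33 *rad27*Δ and *rtt105*Δ *rad27*Δ, had 17 segments in all. Of these, 8 reached outside the frames (47.1%), against 95 of 152 in strains with Rad27 (62.5%, adjusted p = 0.393, Fisher's exact test). Ty2 gave 3 of 14 and 16 of 152 (adjusted p = 0.393, exact test), and the element's strand 9 of 17 and 68 of 152 (adjusted p = 0.698, exact test). All 4 segments of *rtt105*Δ *rad27*Δ were internal and short, at 47, 49, 73 and 87 bp, and 2 of them came from YOR192C-B.

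Length differed with the place in the element. On the 5′ side the median was 193 bp, on the 3′ side 319 bp and inside the frames 138.5 bp. By genotype, the median was 184 bp in *rtt105*Δ (47 to 466 bp), 162 bp in *sgs1*Δ (81 to 348 bp), 129 bp in *sgs1*Δ *exo1*Δ (71 to 481 bp) and 134.5 bp in *rad27*Δ (47 to 347 bp). The 7 segments of *rfa1*-t33 were 96, 104, 168, 193, 212, 344 and 444 bp long. The 5 of *exo1*Δ were 127, 152, 209, 348 and 431 bp, the 3 of *rev3*Δ 105, 105 and 432 bp, and the 2 of *pol32*Δ 268 and 395 bp. The 4 of *mre11*-H125N were 94, 99, 110 and 351 bp. The longest segment of *rtt105*Δ *rad27*Δ, of 87 bp, was shorter than any in *mre11*-H125N.

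**Figure D5:**
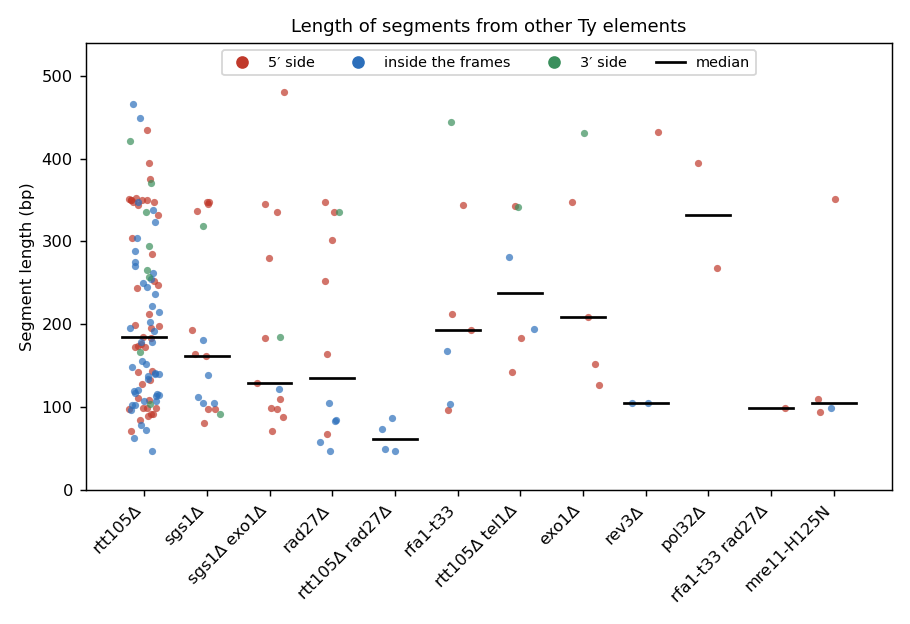
Length in bp of each of the 169 segments by genotype, coloured by the side of the element, with the median as a black line. *rtt105*Δ segments ran from 47 to 466 bp with a median of 184 bp, and the 4 of *rtt105*Δ *rad27*Δ from 47 to 87 bp.

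Compared with the element at YPL257W-B, a larger share of the segments listed at the other Ty elements came from element ends. Since the true donor copy cannot be told apart, this describes where segments were listed and not which copies gave them. In *rtt105*Δ, 47 of 81 Ty1 segments of the other elements reached outside the frames (58.0%), against 16 of 82 at YPL257W-B (19.5%), and the difference was beyond counting error (adjusted p = 1.86e-06 over 4 comparisons, Fisher's exact test). At YPL257W-B, 6 of these lay on the 5′ side and 10 on the 3′ side, while 66 were internal. Strand did not pass, with 49 of 95 on the element's strand in the other elements (51.6%) and 48 of 82 at YPL257W-B (58.5%, adjusted p = 0.49, exact test). The difference was -6.96 percentage points. Where YPL257W-B did give 5′-side segments they looked alike: over all genotypes, 15 of its 18 ended between positions 40 and 55, and 15 of 18 were opposite to the element. Its internal segments were opposite in 28 of 81.

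Long segments were more frequent in the other Ty elements than among insertions from outside Ty elements. In *rtt105*Δ, 81 of 95 segments from other Ty elements were at least 100 bp long (85.3%, 95% exact interval 76.5 to 91.7%), as were 72 of 82 at YPL257W-B (87.8%, 78.7 to 94.0%). The adjusted p was 0.665 (Fisher's exact test). Outside Ty elements, 251 of 343 insertions of *rtt105*Δ reached that length (73.2%, 68.2 to 77.8%), fewer than of the other Ty elements (adjusted p = 0.0296, exact test). With a margin of 0 bp around the frames this last call was lost (adjusted p = 0.051, exact test). The medians were 184 bp for the other Ty elements, 155.5 bp for YPL257W-B and 134 bp outside Ty elements.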

How the data were processed

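The authors filtered and merged the amplicon reads, searched them for insertions of more than 10 bp with BLASTN, and removed redundant reads. The deposited lists hold, as their unit, the position in base pairs and the strand of each donor on R64. One line is one insertion, with no count of reads, and the libraries of a genotype are pooled. Of 30 files 26 were used. Not used were a text list of libraries, a complex-insertion list without donors and a pair of lists for an *rtt105* RFA1-t33 strain that no library has. The library list gives that pair for the *rfa1*-t33 *rad27*Δ libraries, whose values here come from the lists that carry their own name, so this assignment is in doubt. The insertion total that the paper reports for this strain matches the lists used, complex insertions included. The unused pair was not compared. In the library list, *yku70*Δ points to the file of *rev3*Δ, so *yku70*Δ (2 libraries) is without values.

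Elements and coordinates came from the RefSeq gene table of R64, and the strand of an element from its systematic name. Genes of the mating-type cassettes were given a margin of 700 bp. Members and lists were chosen with earlier results of these data known. The elements named are those with at least 3 segments or of the Ty3 kind. Others were added after their values were seen. Counts were tested with Fisher's exact test and exact binomial tests, two-sided, with Benjamini-Hochberg adjustment within each family and a threshold of 0.05 (Python 3.11.15, SciPy 1.17.1, pandas 2.3.3). Intervals are exact (Clopper-Pearson) and cover counting error only. A count of 0 was read as fewer than 3. The placing of listed coordinates on elements was tested on simulated segments, and 370 of 370 were recovered. This checks the computation only, and not whether a segment was listed at the copy or LTR that gave it. Alternatives were other margins, near-identical segments counted once, complex donors added, a minimum of 50 bp, insertions as denominator, other colony numbers, the chi-square test, other LTR borders, single runs and the omission of YPR137C-B.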

Additional observations from a re-analysis of the deposited data

Results flagged for a closer look

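Donors from other Ty elements were also listed in complex insertions, those with more than 1 donor, which the comparisons above did not use. There were 15 in *rtt105*Δ, 6 in *sgs1*Δ *exo1*Δ and 2 in *sgs1*Δ, against 0 in *mre11*-H125N. This is 0.401, 1.09 and 0.189 donors per 10000 colonies in the 3 mutants, against an upper limit of 0.208 in *mre11*-H125N for a count of 0, so the *sgs1*Δ value lies under that limit. All 23 were of the Ty1 kind and belonged to 18 insertions. In 4 of these insertions all donors came from other Ty elements, in 5 a donor came from YPL257W-B and in 8 one came from outside Ty elements. An insertion of *rtt105*Δ and one of *sgs1*Δ *exo1*Δ had nearly the same make-up. Both joined the stretch from 5536 to 5628 of YOL103W-B, after *pol*, with a stretch of its *gag* that ended at 131 and began at 14 in *rtt105*Δ and at 16 in *sgs1*Δ *exo1*Δ. All 4 donors were on the opposite strand. None was listed in *rad27*Δ, whose lists held 52 complex donors.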

How the results depend on the processing

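Of 265 recomputed values, 231 kept their direction and their side of the threshold, 25 changed direction, 5 lost and 4 gained a call. With insertions outside the cassettes as the denominator, the ratio to *mre11*-H125N was 0.228 in *rtt105*Δ, 0.518 in *sgs1*Δ, 0.226 in *sgs1*Δ *exo1*Δ, 0.236 in *rfa1*-t33, 0.694 in *exo1*Δ, 0.938 in *rev3*Δ, 0.417 in *rtt105*Δ *tel1*Δ, 0.0174 in *rtt105*Δ *rad27*Δ, 0.0205 in *rfa1*-t33 *rad27*Δ and 0.0495 in *rad27*Δ. All but the last turned round, and the lower share passed in *rtt105*Δ, *sgs1*Δ *exo1*Δ, *rfa1*-t33, *rtt105*Δ *rad27*Δ, *rfa1*-t33 *rad27*Δ and *rad27*Δ (adjusted p = 1.38e-05 to 0.0251, exact test). Among pairs it was 0.351 for *rtt105*Δ *rad27*Δ to *rad27*Δ, 0.414 for *rfa1*-t33 *rad27*Δ to *rad27*Δ, 1.82 for *rtt105*Δ *tel1*Δ to *rtt105*Δ, 0.435 and 0.325 for *sgs1*Δ *exo1*Δ to *sgs1*Δ and to *exo1*Δ, and 1.04 for *rfa1*-t33 to *rtt105*Δ, all turned round, of which both *sgs1*Δ *exo1*Δ values passed. The ratio of *rfa1*-t33 *rad27*Δ to *rfa1*-t33 also passed at 0.0867, and that of *rtt105*Δ *rad1*Δ to *rtt105*Δ, at 0, no longer did.

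With a minimum of 50 bp the ratio of *rtt105*Δ *rad27*Δ to *mre11*-H125N was 0.645. Without YPR137C-B it was 3.39 in *rfa1*-t33, no longer called, and 0.817 in *pol32*Δ, and the strand share of *rtt105*Δ was -0.70 points from even. With complex donors added, *sgs1*Δ *exo1*Δ passed against *exo1*Δ (3.75-fold). With colonies of the first library only, a choice made after seeing the data, the ratios to *rtt105*Δ were 0.513 in *rtt105*Δ *tel1*Δ and 0 in *rtt105*Δ *rad1*Δ, no longer called. Near-identical segments counted once gave a difference of -22.02 points in the share outside the frames for *rtt105*Δ, now called. In the smaller *rtt105*Δ run, of 5 segments, the differences from other genotypes were -7.04 points for Ty2, 29.73 outside the frames and -17.84 for strand, and strand was -30 points from even. With *rad27*Δ segments of a single run, strains without Rad27 differed by -10.53 points in Ty2 share in one run, and by 12.5 outside the frames and -19.74 for strand in another. With a margin of 0 bp the share of at least 100 bp exceeded that outside Ty elements by 11.40 points, no longer called. The cause was not tested in any of these.

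Other LTR borders, *rad27*Δ colonies at 30 °C in the pairs and the omission of positions shared within a run were also chosen after seeing the data, and changed no call. The LTR borders among these gave the same shares as the main setting, so they could not have changed a call. No paired analysis was possible because the pooled lists carry no replicate numbers, and leaving out single libraries could not be run for the same reason. Segments whose sequence occurs once in R64 could not be selected without a genome. Small counts limit most genotypes, since 8 of the 12 with segments had 7 or fewer.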

Other observations

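At the edge of the 400-bp margin, the farthest member lay 356 bp from its element (*rtt105*Δ, YPR137C-B) and the nearest insertions left out lay 409 bp from the Ty4 element YHL009W-B (*rad27*Δ), 416 bp from YDR034C-D (*rtt105*Δ) and 424 bp from YER160C (*rtt105*Δ). Within 1000 bp, 9 insertions were left out. One of them, a 98-bp segment of *rev3*Δ on chromosome I from 163753 to 163850, lay 694 bp from YAR010C, taken here as a lone *gag* frame. It lay beyond the end of that frame, on the side where *pol* lies in a full element. Whether it came from *pol* was not tested, and it was counted as outside Ty elements.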
